A study of Mus musculus with 37 samples.

Results

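The 12 BXD strains with the most leptin transcript (*Lep*) in brown adipose tissue were compared with the 12 strains with the least, out of 35 BXD strains and 37 arrays in all. The strains were chosen by the *Lep* value itself: the 35 strains were ranked on the 1 *Lep* probe set of the array, and the 11 strains between the ends were set aside. The BXD strains are inbred mouse lines made by crossing C57BL/6J with DBA/2J, the parental strains, so each line carries its own fixed mixture of both genomes. Every strain in both groups was male, fed chow for life, fasted overnight and killed at 29 weeks. None carried a transgene or received a drug. Each array held RNA pooled from about 5 mice of 1 strain, so the spread given below is between strains, and the spread between mice of a strain cannot be seen. The high group held BXD61, BXD65, BXD66, BXD68, BXD69, BXD71, BXD79, BXD80, BXD85, BXD92, BXD96 and BXD97, and the low group BXD43, BXD45, BXD48, BXD49, BXD51, BXD55, BXD56, BXD64, BXD81, BXD90, BXD95 and BXD99.

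Leptin is the hormone by which fat cells report their lipid store to the brain. White fat cells, which hold a single large droplet, make far more of it than brown fat cells, which hold many small droplets and burn lipid for heat through the uncoupling protein *Ucp1*. In white fat, *Lep* transcript rises with the size of the fat cell, and genes such as *Mest* are known to rise when a fat depot expands.

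Values are in rescaled units, in which each array has a mean of 8 and a spread (standard deviation, SD) of 2 over its probe sets. A difference in these units is not a fold, because the log base was not given. The high group ran from 12.005 to 13.384 for *Lep* with a median of 12.69, and the low group from 9.081 to 10.823 with a median of 10.49. Their means were 12.71 ± 0.44 (SD, n = 12) and 10.26 ± 0.56 (SD, n = 12), a gap of 2.44 units that the ranking itself made and that was not tested. The strains just inside and just outside each limit were close: BXD71 at 12.005 was in the high group and BXD103 at 11.843 was not, while BXD64 and BXD48, both at 10.823, were in the low group and BXD62 at 10.869 was not. Among the 41155 probe sets kept, *Lep* had the 70th largest SD across the BXD strains. The parental strains lay at the lower end of the high group, with C57BL/6J at 12.181 inside it and DBA/2J at 11.94 just under it.

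**Figure D1:**
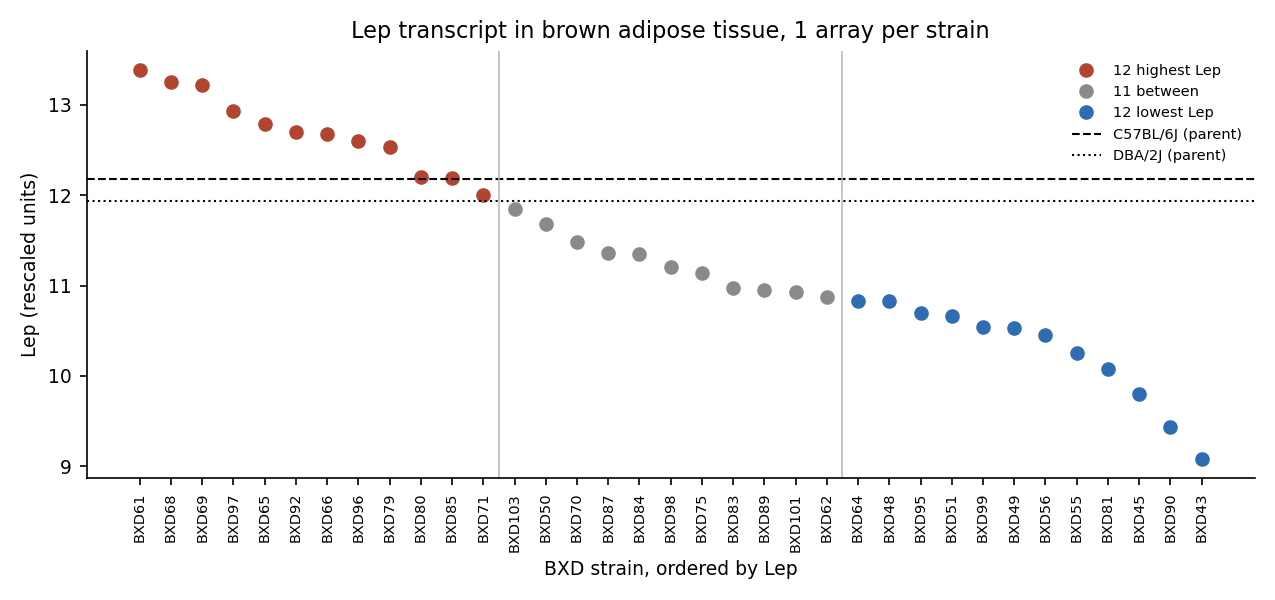
*Lep* in each BXD strain, in rescaled units on the vertical axis, with strains ordered from highest to lowest on the horizontal axis; colours mark the 12 high, 11 middle and 12 low strains, and the horizontal lines mark the parents. The values fall without a step at either limit, from 13.384 in BXD61 to 9.081 in BXD43, and both parents lie near the limit of the high group.

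The groups had been proposed as white-like against lean brown fat, and the markers bore this out only in part. *Ucp1*, which defines brown fat, was as bright in the high strains (15.018 to 15.629, median 15.47) as in the low strains (14.968 to 15.613, median 15.39), a difference of 0.0498 ± 0.0783 (SE, limma adjusted p = 0.827). Of 12 white fat markers, 2 were higher and 1 was lower in the high strains, against 1.72% and 2.04% of all probe sets. The homeobox gene *Hoxc8*, a mark of white depots, differed by 0.102 and the adipokine *Adipoq* by -0.0567, and neither passed the test. The groups are therefore called by their *Lep* level alone, as high-*Lep* and low-*Lep* strains.

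Across the 41154 probe sets other than *Lep*, 707 were higher in the high-*Lep* strains (1.72%) and 839 were lower (2.04%), 1546 in all (3.76%), at an adjusted p of 0.05 in limma. These belonged to 602 named genes that were higher and 673 that were lower, of 23440 tested. Most of the differences were small. Their median size was 0.322 units, and 22 probe sets differed by more than 1 unit, 15 of them higher. The values of the 2 groups did not overlap at 35 probe sets (0.085%), of which 21 were higher and 14 lower. *Lep* and every other probe set came from the same arrays, so the ranking and the comparison share whatever else set those arrays apart.

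**Figure D2:**
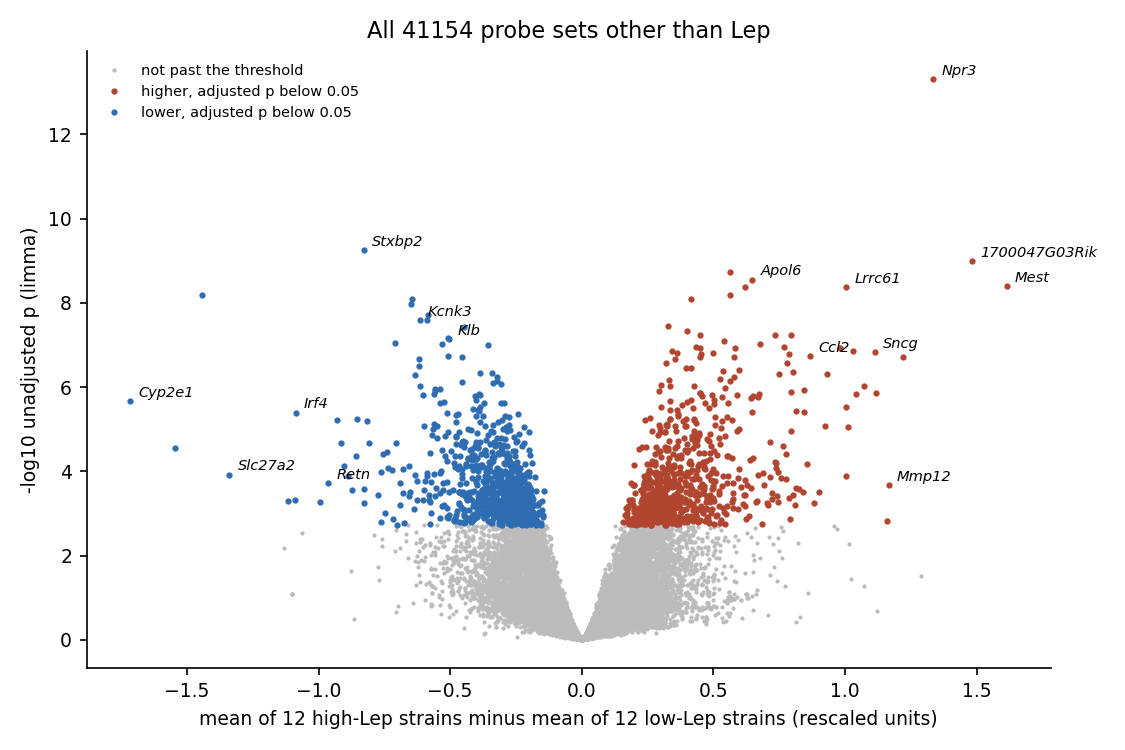
Difference between the group means (horizontal axis, rescaled units, above 0 when higher in the high-*Lep* strains) against -log10 of the unadjusted limma p (vertical axis) for 41154 probe sets, with those past an adjusted p of 0.05 in colour. *Npr3* stands highest on the vertical axis, *Mest* lies farthest to the right and *Cyp2e1* farthest to the left.

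The 250 bases before the transcription start of *Lep* and of the named gene that differed most in each direction, *Mest* and *Cyp2e1*, are shown because the start of a gene is where the cell begins to read it. The sequences are from RefSeq on GRCm38.p6 and all lie on the plus strand: *Lep* at chr6:29059971-29060220, *Mest* at chr6:30737800-30738049 (the second of 3 annotated starts) and *Cyp2e1* at chr7:140763569-140763818. Capitals mark matches on either strand. The motifs searched were the letters TATAA for the core element by which many regulated genes are started, GGGCGG for the element known as the GC box, CCAAT for the element of that name, TTGCNNAA for the palindrome that C/EBP proteins read, and CACGTG for the E box, which these 3 stretches do not hold. The first overlaps itself where its copies on both strands share letters.
Lep: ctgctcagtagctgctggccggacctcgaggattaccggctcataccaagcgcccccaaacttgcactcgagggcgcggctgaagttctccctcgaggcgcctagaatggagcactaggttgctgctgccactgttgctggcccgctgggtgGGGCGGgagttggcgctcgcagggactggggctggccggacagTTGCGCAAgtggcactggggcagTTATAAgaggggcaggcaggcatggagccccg
Mest: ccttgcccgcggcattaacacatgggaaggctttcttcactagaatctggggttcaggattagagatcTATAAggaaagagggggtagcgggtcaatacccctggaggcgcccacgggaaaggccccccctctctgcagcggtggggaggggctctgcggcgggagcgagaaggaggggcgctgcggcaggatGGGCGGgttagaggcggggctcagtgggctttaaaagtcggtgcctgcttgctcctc
Cyp2e1: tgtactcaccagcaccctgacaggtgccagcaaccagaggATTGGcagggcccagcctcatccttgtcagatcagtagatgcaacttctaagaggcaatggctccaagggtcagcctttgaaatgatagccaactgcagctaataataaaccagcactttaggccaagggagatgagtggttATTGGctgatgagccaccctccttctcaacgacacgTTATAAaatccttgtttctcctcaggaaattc

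In *Lep* the letters TATAA began at -31, the C/EBP palindrome at -55 and the GC box at -98, counted from the start. In *Cyp2e1* TATAA also began at -31, while the only match in *Mest* began at -182, with a GC box at -57. A match of this kind is a match of letters and does not show that a factor binds. Shares are given for the 10147 promoters of genes above the background of the array (the level under which 95% of olfactory receptor probe sets lie), the 455 of higher genes and the 552 of lower genes, in that order, and were not tested. The C/EBP palindrome stood in 7.39%, 7.91% and 7.97%, and in 9.02% of the 17790 promoters of all tested genes. A GC box was found in 58.1%, 56.3% and 65.2%, TATAA in 12.9%, 17.6% and 9.24%, the CCAAT element in 35.6%, 33.8% and 36.6%, and the E box in 8.42%, 5.05% and 10.1%. Of 11 transcription factors that are linked to the *Lep* promoter or form fat cells, 1 was higher, *Fosl2*, by 0.306 (adjusted p = 0.0441), and *Cebpa* (-0.0737) and *Pparg* (-0.0562) did not pass. Among probe sets above the background, where 10 of the 11 lay, 7.05% were called in either direction.

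*Npr3*, the receptor that clears natriuretic peptides and so limits their lipolytic signal in fat cells, was the gene that followed *Lep* most closely. The high-*Lep* strains ran from 13.206 to 13.743 (median 13.37) and the low-*Lep* strains from 11.586 to 12.389 (median 12.13), with no overlap. The difference was 1.33 ± 0.0899 (SE, limma adjusted p = 1.98e-09). Across the 35 strains its Pearson correlation with *Lep* was 0.924, and in the 11 middle strains, which neither group used, it was 0.811. The 35 strains include those 11, and both transcripts were read from the same arrays. A second gene on the same chromosome, 1700047G03Rik, of no known role, was separated from *Npr3* by 3 annotated genes and was 1.48 ± 0.159 higher (adjusted p = 1.42e-05), with a correlation with *Lep* of 0.903.

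*Mest*, the expansion marker, showed the largest difference of any probe set that was higher, 1.61 ± 0.185 (SE, adjusted p = 2.18e-05). The high-*Lep* strains ran from 9.623 to 11.37 (median 10.54) and the low-*Lep* strains from 8.112 to 9.557 (median 8.94). The groups did not overlap, though only by a narrow margin. Of the 8 genes that mark fat expansion 4 were higher and 0 lower, with a median of 0.302 against a median of 0 to the third decimal over all probe sets. Over all probe sets 1.72% were higher. Among those above the background, where 7 of the 8 lay, 7.05% were called in either direction. Beside *Mest*, *Npr3* and the caveola coat protein *Cav1* (0.216, adjusted p = 0.00452), the Wnt inhibitor *Sfrp5* was higher by 0.741 (adjusted p = 0.0197). *Bmp3* differed by 0.339 and did not pass.

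*Mest* is on the chromosome of *Lep*, with 30 protein-coding genes between them. *Mest* was the only gene called among the 79 with a probe set that lay within 40 protein-coding genes of *Lep* on either side. Over the whole array 5.58% of the probe sets of protein-coding genes were called. The precursor *Mir335*, which lies within *Mest* and is made from its transcript, did not pass the test: the difference was -0.105 ± 0.131 (adjusted p = 0.77), at a mean level of 6.74 that is under the background of the array. Its 5′ product is shown, from RefSeq on GRCm38.p6, with the seed (bases 2 to 8) in capitals.
mmu-miR-335-5p: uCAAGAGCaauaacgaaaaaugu

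Among all miRNA precursors 7 of 574 were called, or 1.22%. Of these precursors 451 lay at or under the background of the array, where 0.806% of all probe sets were called, and above which 7.05% were called.

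**Figure D3:**
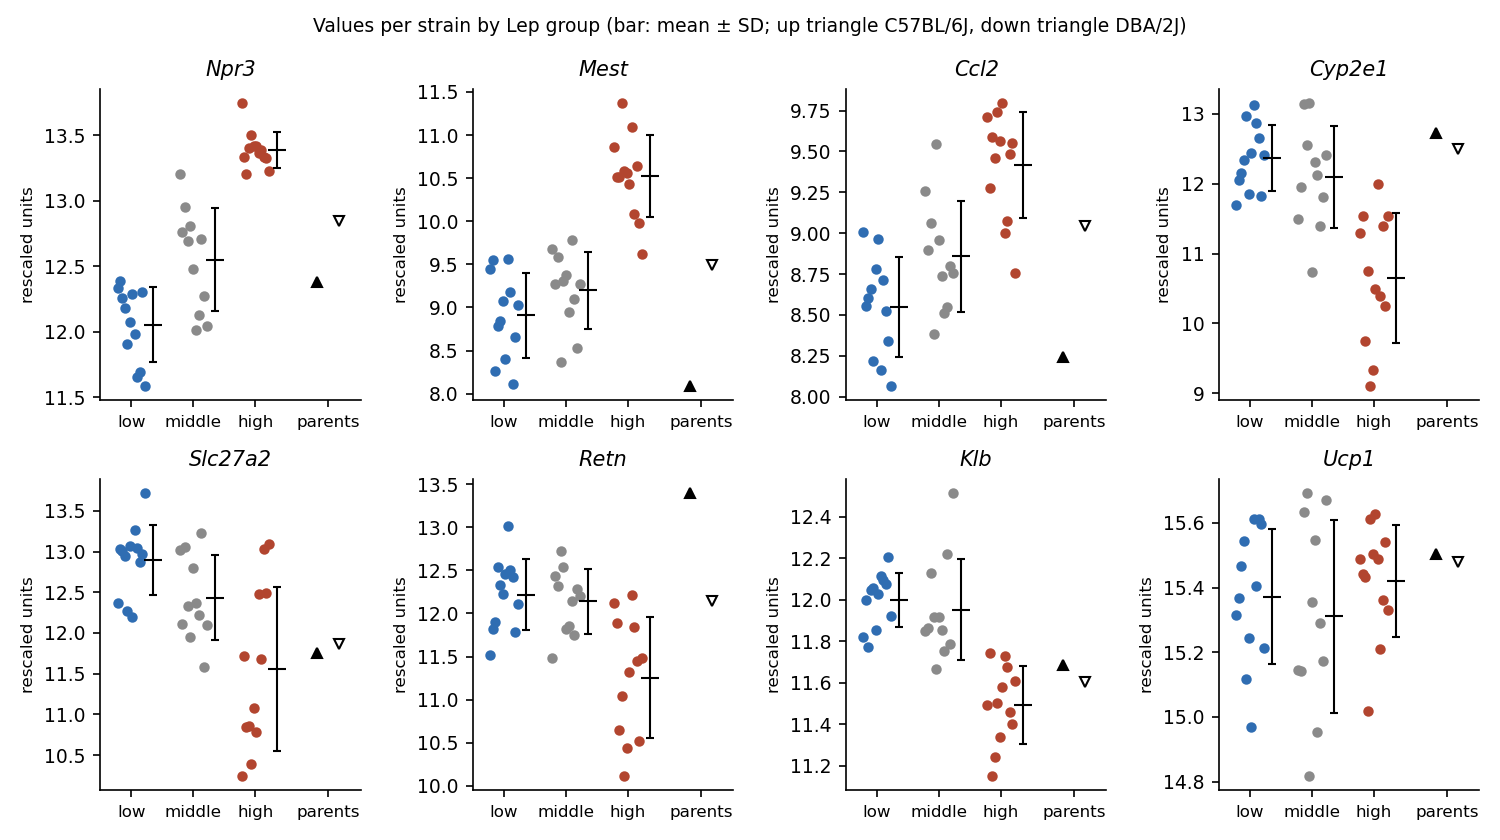
Values of 8 genes in each strain, in rescaled units, for the low, middle and high strains and the parents; each point is 1 array, and the bar beside each group is its mean ± SD. *Npr3*, *Mest* and *Klb* separate the high from the low strains, *Ucp1* overlaps throughout, and for *Cyp2e1*, *Retn* and *Klb* the middle strains lie with the low ones.

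Several other genes were higher by more than 1 unit. *Lbp*, which binds bacterial lipopolysaccharide, was higher by 1.22 ± 0.173 (adjusted p = 0.000173), *Thbs1*, a matrix glycoprotein, by 1.12 ± 0.179 (adjusted p = 0.000673), and *Pcolce*, which speeds the trimming of procollagen, by 1.03 ± 0.143 (adjusted p = 0.00016). The synuclein *Sncg*, a gene of white fat cells and neurons, ran from 12.221 to 13.691 in the high-*Lep* and from 10.97 to 12.512 in the low-*Lep* strains, and 10 of the 12 high-*Lep* strains were above every low-*Lep* strain. Its difference was 1.11 ± 0.155 (adjusted p = 0.000165). *Lrrc61* (1.004), 1110059M19Rik (1.003) and *Ear2* (1.07), an eosinophil ribonuclease, were also higher by more than 1 unit.

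The white fat markers that were higher were *Nnat* and *Dpt*. *Nnat*, an imprinted proteolipid, was higher by 1.005 ± 0.223 (adjusted p = 0.0109), and *Dpt*, a matrix protein, by 0.794 ± 0.146 (adjusted p = 0.0024). The marker that was lower, *Retn*, encodes the adipokine resistin. It ran from 10.112 to 12.215 (median 11.38) in the high-*Lep* strains and from 11.52 to 13.013 (median 12.27) in the low-*Lep* strains, with 8 of 12 high-*Lep* strains under every low-*Lep* strain. The difference was -0.962 ± 0.221 (adjusted p = 0.0133). *Stxbp2*, a protein of vesicle fusion and the direct neighbour of *Retn* on the chromosome, was also lower, by -0.828 ± 0.086 (adjusted p = 1.15e-05), and its groups did not overlap. Of the 21 adipokines and secreted factors measured, 2 were higher and 2 lower. Among probe sets above the background, where 15 of the 21 lay, 7.05% were called in either direction. *Hp*, haptoglobin, was higher by 0.515 and *Slit2* by 0.291, and *Nrg4*, a factor that brown fat secretes, was lower by -0.239.

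The collagen and matrix genes were the list that moved most completely. Of 20 genes 17 were higher and 0 lower, with a median difference of 0.474, against 1.72% higher over all probe sets. Among probe sets above the background, where 19 of the 20 lay, 7.05% were called in either direction. The largest were the fibrillar collagens *Col3a1* (0.672 ± 0.108, adjusted p = 0.000676) and *Col1a1* (0.648 ± 0.111, adjusted p = 0.00127) and the collagen cross-linking enzyme *Lox* (0.592 ± 0.0953, adjusted p = 0.000692). *Col6a1*, a chain of the collagen VI that surrounds fat cells, was higher by 0.542 ± 0.0732 (adjusted p = 0.000134), and 11 of the 12 high-*Lep* strains were above every low-*Lep* strain. *Postn* was the only gene of the list with a value under 0 (-0.133), and it did not pass. The mean of the 20 genes ran from 10.58 to 11.01 in the high-*Lep* and from 10.25 to 10.68 in the low-*Lep* strains.

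Of 18 macrophage genes 11 were higher and 0 lower, with a median of 0.642, against 1.72% higher over all probe sets. Among probe sets above the background, where 14 of the 18 lay, 7.05% were called in either direction. All 18 differences were above 0. The same held for all 9 endothelial, 11 lymphocyte, 12 liver and 15 skeletal muscle genes, of which 3, 1, 0 and 0 passed the test. Only 3 of the 11 lymphocyte and 4 of the 12 liver genes lay above the background. The count of higher macrophage genes was 8 to 14 when single strains were left out, 5 with 8 against 8 strains and 1 with the lymphocyte mean as a covariate. The largest were the macrophage elastase *Mmp12* (1.17 ± 0.271, adjusted p = 0.0144) and *Gpnmb*, a glycoprotein of lipid-laden macrophages (1.16 ± 0.327, adjusted p = 0.0438). *Ccl2*, which draws monocytes into tissue, ran from 8.758 to 9.795 in the high-*Lep* and from 8.065 to 9.01 in the low-*Lep* strains, a difference of 0.867 ± 0.123 (adjusted p = 0.000173). *Itgax*, carried by macrophages of obese fat and by dendritic cells, was higher by 0.745 and *Trem2* by 0.592. The call for *Gpnmb* was lost in 16 and that for *Trem2* in 8 of 24 omissions of a single strain. The defining markers *Cd68* (0.664, adjusted p = 0.0887) and *Adgre1* (0.501, adjusted p = 0.117) did not pass. The mean of the 18 genes ran from 8.76 to 10.05 in the high-*Lep* strains and from 8.36 to 9.38 in the low-*Lep* strains, so the groups overlapped, with BXD61 and BXD69 highest and BXD68 the lowest of the high-*Lep* strains. In these bulk samples more cells of a type and more RNA per cell cannot be told apart.

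**Figure D4:**
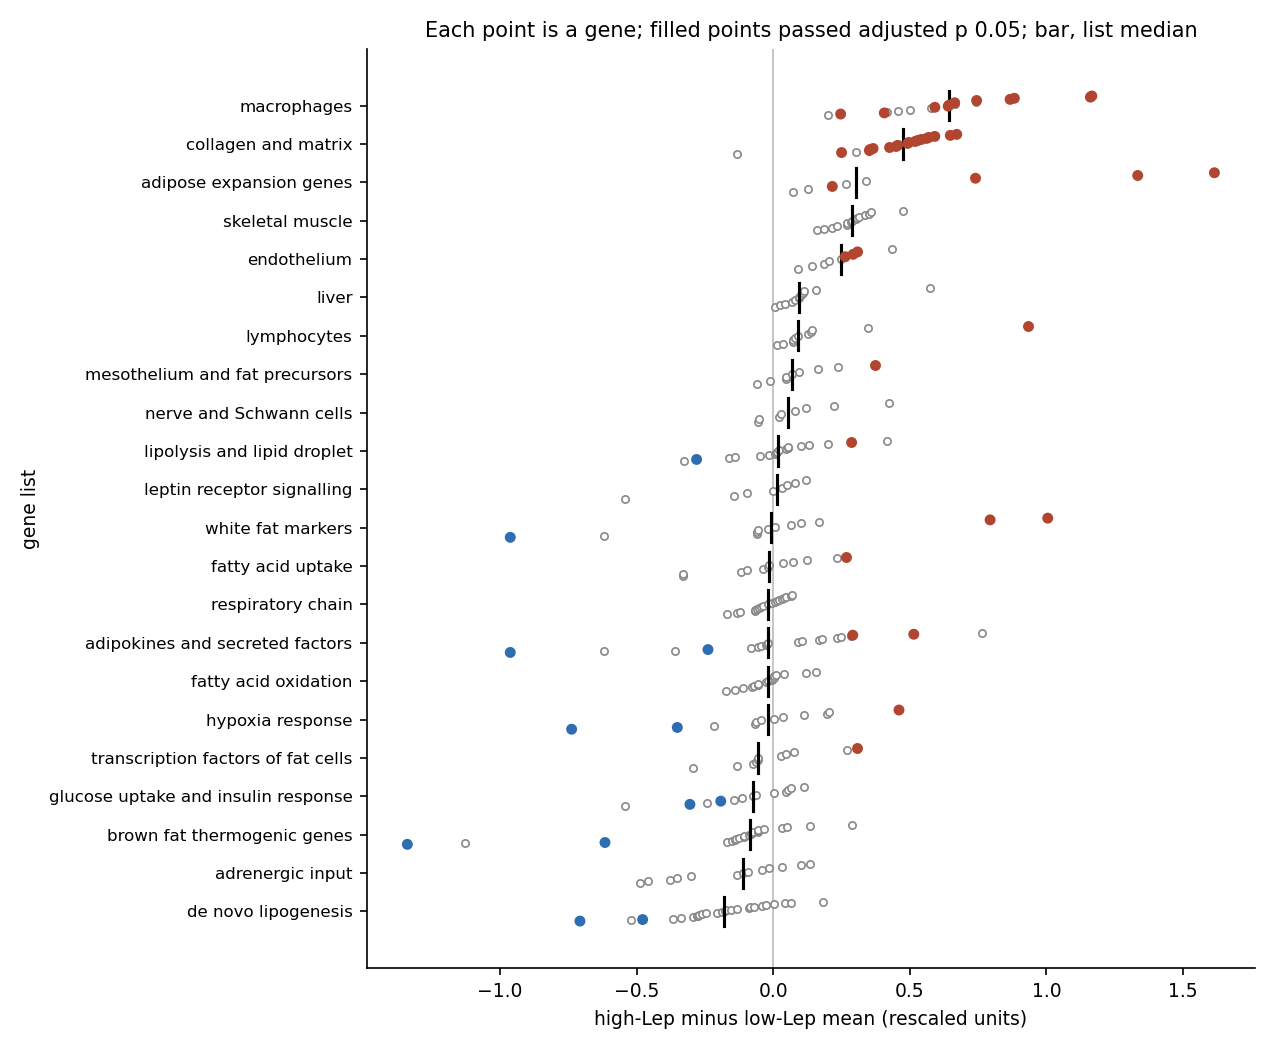
Difference between the group means for every gene of the 22 lists (horizontal axis, rescaled units), 1 row per list, ordered by the list median, which the black bar marks; filled points passed an adjusted p of 0.05. The macrophage and the collagen and matrix genes lie to the right with medians of 0.642 and 0.474, and the thermogenic and lipogenic genes lie slightly to the left with medians of -0.0862 and -0.182.

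Among 9 endothelial genes 3 were higher, *Pecam1* (0.293), *Cdh5* (0.264) and *Esam* (0.309), and the other 6 had values above 0. All 9 lay above the background, where 7.05% of probe sets were called in either direction. Of 11 lymphocyte genes 1 was higher: *Ighm*, the immunoglobulin heavy chain of B cells, by 0.931 ± 0.14 (adjusted p = 0.000333). The other 10, which include the T cell marker *Cd3e* (0.126), did not pass. Only 3 of the 11 lay above the background, and at or under it 0.806% of probe sets were called. With the mean of the 11 lymphocyte genes as a covariate 227 probe sets were higher and 236 lower, and with *Ighm* left out of that mean 508 and 581. The lymphocyte mean ran from 7.90 to 8.47 in the high-*Lep* and from 7.70 to 8.22 in the low-*Lep* strains. Of 9 genes of mesothelium and fat precursors, 6 of them above the background, 1 was higher, the precursor receptor *Pdgfra* (0.373, adjusted p = 0.0118). None of the 8 genes of nerve and Schwann cells, the 12 of liver or the 15 of skeletal muscle passed.

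Skeletal muscle transcripts differed widely between the strains, and the groups overlapped. The mean of the 15 muscle genes ran from 9.55 to 13.07 in the high-*Lep* strains and from 10.12 to 12.65 in the low-*Lep* strains, and the skeletal actin *Acta1* was 14.32 ± 0.999 and 14.05 ± 0.805 (SD, n = 12). With the muscle mean as a covariate 692 probe sets were higher and 779 lower.

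On the lower side, *Cyp2e1*, a cytochrome that oxidizes ethanol and ketones, showed the largest difference, -1.71 ± 0.282 (SE, adjusted p = 0.000858). The high-*Lep* strains ran from 9.105 to 11.999 (median 10.62) and the low-*Lep* strains from 11.69 to 13.125 (median 12.38), and 11 of the 12 high-*Lep* strains were under every low-*Lep* strain. *Slc27a2*, which activates very long chain fatty acids, was lower by -1.34 ± 0.295 (adjusted p = 0.0104). Its high-*Lep* strains were spread from 10.243 to 13.087, and 8 of 12 were under the lowest low-*Lep* strain at 12.195. The melanocortin receptor *Mc5r* (-1.09 ± 0.272, adjusted p = 0.0225) and *Irf4* (-1.09 ± 0.186, adjusted p = 0.00129), a transcription factor known to drive thermogenic genes in brown fat and also active in lymphocytes, were lower as well. Further down were enzymes that activate fatty acids, *Acsm3* (-0.887) and *Acsl5* (-0.873), the isomerase *Eci3* (-0.853), the peroxidase *Gpx8* (-0.858), and *Pbld1*, *Tc2n* and 1700040L02Rik, between -0.915 and -0.996. *Tc2n* had a mean level of 7.24, under the background of the array. A pair of probe sets without a gene name, Affy_17540486 (-1.54) and Affy_17241549 (-1.44), also lay among the largest.

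Of 22 thermogenic genes 2 were lower and 0 higher, with a median of -0.0862. This count lies near the 7.05% of probe sets above the background that were called in either direction. Of the 22 differences 4 were above 0, and over the 35 strains the mean of the list had a correlation with *Lep* of -0.444. Beside *Slc27a2*, *Kcnk3*, a potassium channel enriched in brown fat cells, was lower by -0.616 ± 0.0779 (adjusted p = 6.71e-05), with high-*Lep* strains from 12.055 to 12.714 and low-*Lep* strains from 12.526 to 13.159. *Elovl3*, which lengthens fatty acids in active brown fat, differed by -1.13 ± 0.383, but its strains were widely spread (8.543 to 12.697 against 10.692 to 13.895) and it did not pass (adjusted p = 0.105). *Cidea* differed by -0.138 (adjusted p = 0.118). None of the 19 respiratory chain genes, the 17 genes of mitochondrial fatty acid oxidation or the 13 of adrenergic input passed.

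Of the 26 genes of fatty acid and triglyceride synthesis 2 were lower and 0 higher, with a median of -0.182, again near the 7.05% called among probe sets above the background. Here 4 of the 26 differences were above 0, and the mean of the list had a correlation with *Lep* of -0.24. *Elovl6*, which lengthens palmitate, was lower by -0.707 ± 0.136 (adjusted p = 0.00363) and the citrate carrier *Slc25a1* by -0.478 ± 0.135 (adjusted p = 0.0439). *Fasn*, fatty acid synthase, differed by -0.207 and did not pass. Of 13 genes of glucose uptake and insulin response 2 were lower, the insulin receptor *Insr* (-0.192) and its substrate *Irs1* (-0.305). Of 18 lipolysis and lipid droplet genes the droplet coat protein *Plin4* was higher (0.287) and seipin, *Bscl2*, lower (-0.28), and of 12 uptake genes *Gpihbp1*, which anchors lipoprotein lipase to capillaries, was higher (0.266). Of 12 genes of the hypoxia response *Adm* was higher (0.461) and *Egln3* (-0.738) and *Pdk1* (-0.351) were lower. The counts of these lists stand against the same 7.05%, as all their genes but some of the hypoxia response (10 of 12) lay above the background. The calls for *Slc25a1*, *Insr*, *Irs1*, *Bscl2*, *Gpihbp1*, *Adm* and *Pdk1*, like those for *Fosl2* and *Slit2*, were each lost in 5 to 20 of 24 omissions of a single strain. None of 8 genes of leptin receptor signalling passed. *Lepr*, the receptor, was at 6.51, under the background of the array, and differed by -0.00117, and *Irs2* differed by -0.541 (adjusted p = 0.084).

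**Figure D5:**
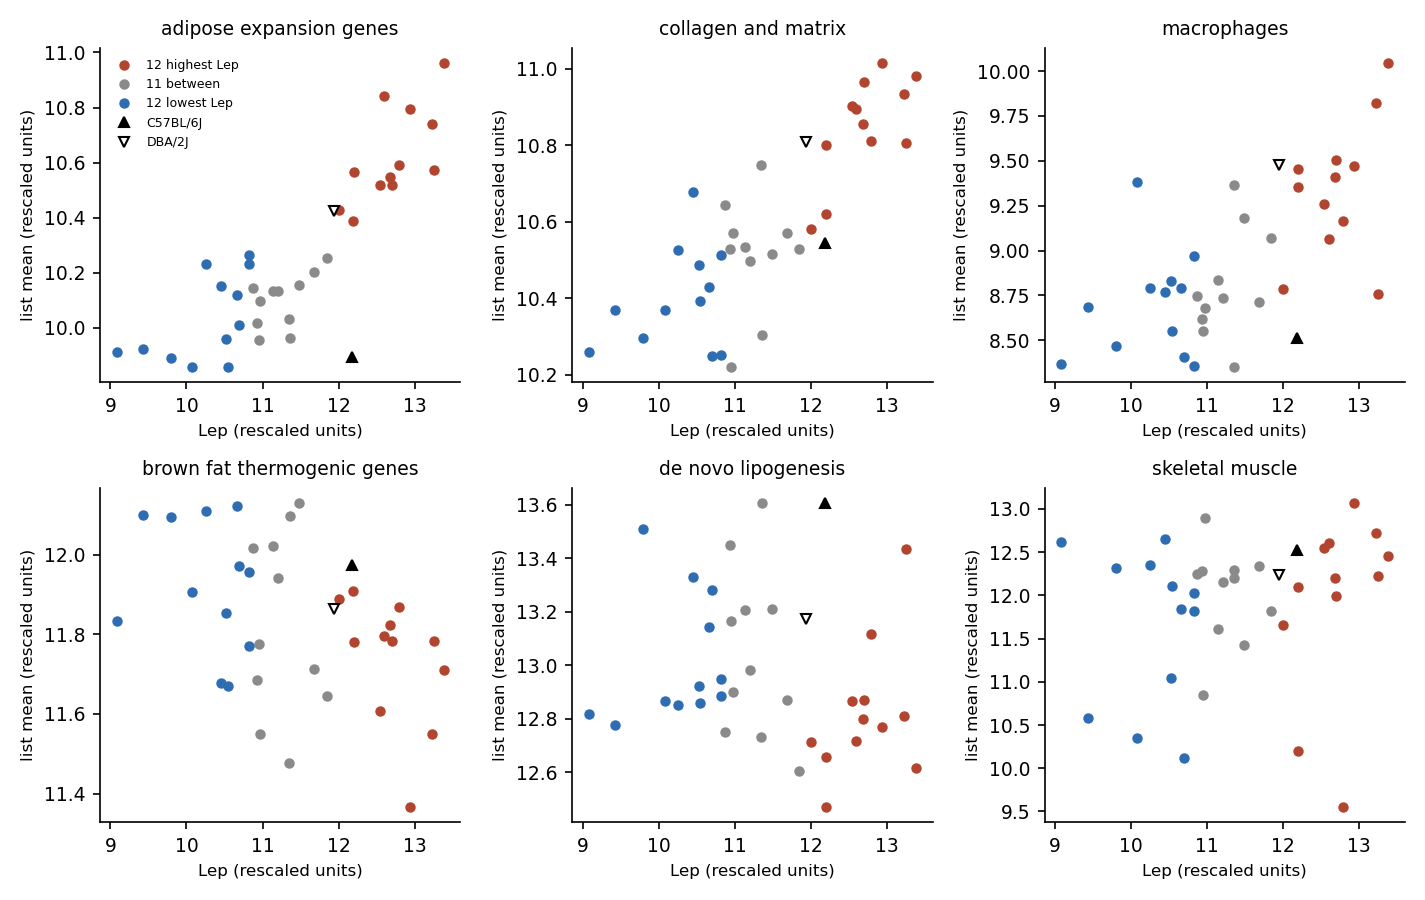
Mean of 6 gene lists in each strain (vertical axes) against *Lep* (horizontal axes), both in rescaled units; each point is 1 array, coloured by group, with the parents as triangles. The expansion and the collagen and matrix means climb with *Lep*, the macrophage mean climbs with more scatter, and the thermogenic, lipogenic and muscle means overlap between the groups.

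By correlation with *Lep* over the 35 strains, a description that shares the arrays with the ranking, the closest genes after *Npr3* and 1700047G03Rik were *Prkcdbp*, a caveola coat protein (0.873), *Fads3*, of the desaturase family, (0.864), *Apol6* (0.858), 1110059M19Rik (0.851), *Sncg* (0.833), *Lbp* (0.832), *Arhgef2* (0.832) and *Pkp2* (0.832). At the opposite end were *Stt3b*, a subunit of the enzyme that adds sugars to new proteins (-0.847), *Stxbp2* (-0.827), *Zfyve26* (-0.818), *Crls1*, cardiolipin synthase (-0.813), and *Tmem179b* (-0.809). *Klb*, the co-receptor for FGF21, was among the genes whose groups did not overlap: 11.151 to 11.744 in the high-*Lep* and 11.772 to 12.206 in the low-*Lep* strains, a difference of -0.505 ± 0.0676 (adjusted p = 0.000124).

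The 11 middle strains, which no group used, give a second view of the called probe sets. Within them the correlation with *Lep* was above 0 for 78.8% of the probe sets called higher, against 48.8% of all probe sets, and under 0 for 59.7% of those called lower, against 51.2% of all. For *Cyp2e1* it was 0.0801 and for *Slc27a2* 0.303, against their direction in the comparison. Among the genes closest to *Lep* over all 35 strains, *Lbp* (-0.212) and *Tmem179b* (0.429) also went the other way in the middle strains, where *Npr3* had 0.811. For 81.9% of the higher and 60.1% of the lower probe sets the middle mean was nearer to the low than to the high mean, against 53.4% of all probe sets. *Lep* itself had a middle mean of 11.25, nearer to the low mean of 10.26 than to the high mean of 12.71. *Klb* shows the pattern on the lower side, with middle strains at 11.95 ± 0.245 (SD, n = 11) beside low-*Lep* strains at 11.9996 ± 0.13 and high-*Lep* strains at 11.49 ± 0.187.

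The parents did not carry the whole pattern, though both had *Lep* near the high group. C57BL/6J was nearer to the high mean at 22.2% of the probe sets called higher and 47.0% of those called lower, and DBA/2J at 59.8% and 53.2%. The share over all probe sets was not taken, so these percentages are descriptions of the called probe sets only. *Mest* was 8.089 in C57BL/6J, under every low-*Lep* strain, and 9.498 in DBA/2J, and *Retn* was 13.40 in C57BL/6J, above every BXD strain of both groups. *Npr3* was 12.38 and 12.84. Each parent is a single array, so these are values without an error.

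When the mean of the macrophage or of the collagen and matrix list was entered as a covariate, the number of calls fell. Both were chosen as covariates after the data were seen, and they are transcript levels, not cell counts. With the mean of the 18 macrophage genes in the model 8 probe sets were higher and 6 lower, all 14 of them also called without it. With that of the 20 collagen and matrix genes 1 was higher and 3 lower, of which only the higher one, *Npr3*, had been called without it. The 3 lower, *Fndc1*, *Folr2* and *Islr*, had differences of 0.136, 0.232 and 0.183 without the covariate, none past the threshold. With it these changed sign to -1.54, -1.19 and -1.10. *Npr3* was higher with either covariate (1.29, adjusted p = 1.62e-05, and 1.09, adjusted p = 0.0188), and with the macrophage mean *Stxbp2* (-0.652, adjusted p = 0.032) and 1700047G03Rik (1.21, adjusted p = 0.0398) were among those left. Across the 35 strains these means had correlations with *Lep* of 0.69 and 0.832, so each covariate also carries much of the group difference. The part of macrophages and matrix in the other differences was not tested apart from this.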

How the data were processed

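Brown adipose RNA of 35 BXD and 2 parental strains was read on 37 Affymetrix arrays, 1 per strain. Per the labels, Affymetrix Expression Console was used, and the authors deposited 1 table of scores, each array rescaled to a mean of 8 and an SD of 2. The summary method, log base and genome build are not given in the sources used here. No column was left unused. Of 41345 probe sets, 190 array controls were left out. A gene was read by its probe set with the highest BXD mean. The 95th percentile of 1128 olfactory receptor probe sets (7.94) served as background.

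Strains were ranked by *Lep*, and the 12 highest compared with the 12 lowest in limma 3.58.1 (R 4.3.3), with Benjamini-Hochberg adjustment over 41154 probe sets *Lep* left out and no filter on low values. The test had been planned for log2 values and was run on the scores as they are. The number of arrays limits the precision. Per-strain values have no replicate. On simulated data 126 of 200 probe sets shifted by 2 SD were recovered, with 4 false calls, and 2 of 200 shifted by 1 SD. The simulated probe sets were drawn independently of each other, and no group was chosen by a measured value. The false calls are therefore no error rate for strains ranked by *Lep*. Members and lists were chosen with earlier results of these data known. Named were *Lep*, the list genes, the 12 genes with the largest called differences in each direction, and the 10 highest and 5 lowest correlations with *Lep*. Singled out after their values were seen were *Klb*, *Stxbp2*, *Mir335* within *Mest*, *Ccl7*, *Ccl9*, *Fdft1*, *Insig1*, *Pdgfra*, *Fads3*, *Ehd2*, *Sdpr*, *Stt3b* and *Crls1*. Some of these also meet the rules above. Alternatives were other group sizes, *Lep* as a continuous covariate, quantile normalization, median centring, a filter on dim probe sets, muscle and lymphocyte covariates, the methods' t-test, a stricter threshold, and single strains left out.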

Additional observations from a re-analysis of the deposited data

How the results depend on the processing

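The main counts were 707 higher and 839 lower. Comparing 8 against 8 strains gave 376 and 419, 17 against 17 gave 477 and 487, the lymphocyte mean as covariate 227 and 236, and an adjusted p of 0.01 gave 226 and 235. Covariates chosen after seeing the data gave 8 and 6 (macrophage mean), 1 and 3 (collagen and matrix mean) and 508 and 581 (lymphocyte mean without *Ighm*). Leaving out 1 strain at a time gave 530 to 781 higher and 616 to 872 lower. *Lep* as a continuous covariate, quantile normalization, median centring (591 and 1027), leaving out dim probe sets, the muscle covariate and the methods' t-test (708 and 923 after Benjamini-Hochberg) kept both counts within 1.5 times. BXD70 lay in the middle, so leaving it out before ranking changed nothing. Of 24 single omissions, some ended the call of 13 named genes, with adjusted p up to 0.0855: *Acot1*, *Adm*, *Bscl2*, *Fosl2*, *Gpihbp1*, *Gpnmb*, *Insig1*, *Insr*, *Irs1*, *Pdk1*, *Slc25a1*, *Slit2* and *Trem2*.

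Besides *Fndc1*, *Folr2* and *Islr*, the collagen and matrix covariate changed the sign of the difference, none past the threshold, for *Lbp* (-0.0294), *Slc27a2* (0.208), *Acsm3* (0.0188), *Trem2* (-0.0283), *Lyz2* (-0.0277), *Ccl9* (-0.349), *Col1a1* (-0.174), *Col3a1* (-0.0741) and *Nrg4* (0.11). The macrophage covariate did so for *Trem2* (-0.0874) and *Lyz2* (-0.0349), neither past the threshold. The cause was not tested. Single omissions moved the lower counts to 1 to 4 for fatty acid synthesis, 0 to 3 for glucose and insulin and 0 to 1 for adrenergic input, and the higher count to 1 to 4 for adipokines. No paired analysis was possible because each array is a different strain and no strain of either group is matched to a strain of the other.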

Other observations

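The genes whose groups did not overlap included several of the caveola coat and the cell cortex, and lists of both were drawn up after these values had been seen, so their counts are descriptions. Caveolae are small pits in the membrane of fat and endothelial cells. Of 13 genes of the caveola coat and membrane bending 6 were higher and 0 lower in the high-*Lep* strains, with a median of 0.198. *Ehd2*, which steadies the neck of the pit, ran from 12.902 to 13.124 against 12.047 to 12.788, a difference of 0.449 ± 0.0635 (limma adjusted p = 0.000173), *Sdpr* was higher by 0.363 and *Prkcdbp* by 0.769. Of 12 genes of the cortex and cytoskeleton 9 were higher and 0 lower, with a median of 0.299. Among probe sets above the background, where 11 of the 13 and all 12 genes lay, 7.05% were called in either direction. The tubulin *Tuba1a* was higher by 0.778 (adjusted p = 0.000212), filamin, *Flna*, by 0.467, the spectrins *Spna2* and *Spnb2* by 0.327 and 0.32, and the myosin *Myh9* by 0.396.

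Lists of 3 other groups were added in the same way, and their counts stand against the 7.05% called among probe sets above the background. Of the peroxisomal genes 17 of 20 lay there and of the chemokine genes 8 of 12, while at or under the background 0.806% were called. Of 20 genes of peroxisomal lipid handling and PPAR alpha targets 8 were lower and 1 higher, with a median of -0.197. The lower count was 5 with 8 against 8 strains, with the lymphocyte mean as a covariate, and without any 1 of BXD43, BXD45, BXD48, BXD64, BXD65, BXD68, BXD69, BXD85, BXD90 and BXD97. The thioesterase *Acot1* was lower by -0.761 (adjusted p = 0.045), and the peroxisomal transporter *Abcd2* went the other way, higher by 0.504 (adjusted p = 0.000826). Of 12 chemokine genes 5 were higher and 0 lower, among them *Ccl7* (0.736) and *Ccl9* (0.744). Of 21 genes of cholesterol synthesis 2 were lower and 0 higher, squalene synthase, *Fdft1* (-0.807, adjusted p = 0.00364), and *Insig1* (-0.446, adjusted p = 0.0468). All 21 lay above the background, and this count is near the share called there.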
